A study of Homo sapiens with 6 samples.

Results

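The transcripts described here encode the cyclin-dependent kinase (CDK) inhibitors and the GADD45 proteins. They are the 10 genes CDKN1A, CDKN1B, CDKN1C, CDKN2A, CDKN2B, CDKN2C, CDKN2D, GADD45A, GADD45B and GADD45G, taken by symbol from the 23710 gene symbols counted in each library. All 10 symbols were present in the count tables. Of these, 7 had enough reads to be tested, GADD45G did not, and CDKN2A and CDKN2B had no read in any library.

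RNA was sequenced from K562 cells, an established human leukaemia line (chronic myelogenous leukaemia) of erythroid character, kept in Iscove's medium with 10% serum at passages 13 to 16. The treated group had 3 libraries from cells given 20 µM 3FM-dC and 2 mM THU for 24 h at 37 °C, and the control group had 3 libraries from cells given the solvent DMSO. Since the controls received neither compound, the effect of 3FM-dC cannot be told apart from that of THU, and both groups come from a single cell line. Whether the libraries of a group stem from separate cultures is not stated in the labels; the p-values therefore reflect the variation among these 6 libraries alone, and it could be technical.

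CDK inhibitors hold the cell cycle back by binding the kinases that drive it. The INK4 proteins (CDKN2A, CDKN2B, CDKN2C and CDKN2D, also called p16, p15, p18 and p19) bind CDK4 and CDK6 and keep D-type cyclins from activating them, whereas the CIP/KIP proteins (CDKN1A, CDKN1B and CDKN1C, also called p21, p27 and p57) bind assembled cyclin-CDK complexes, above all those of CDK2. The GADD45 proteins are small stress-induced proteins that bind the kinase MAP3K4, which feeds the p38 and JNK pathways, as well as PCNA and CDK1, and they have been linked to the removal of DNA methylation together with the glycosylase TDG. K562 is known to carry a deletion of the CDKN2A and CDKN2B region.

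Treatment was followed by unlike changes among the CDK inhibitors and by none that passed the test among the GADD45 genes. CDKN1A rose 4.38-fold and CDKN2D 1.34-fold, CDKN1C fell 2.82-fold and CDKN2C 1.23-fold, and CDKN1B, GADD45A and GADD45B did not pass the test. Thus 2 of the 7 tested members were higher and 2 lower, or 57.1% changed, at an adjusted p under 0.05 (edgeR's quasi-likelihood test, adjusted by Benjamini-Hochberg over all genes). Over all 12339 genes tested, 66.4% changed, 33.8% upwards and 32.7% downwards, so the number of changed members is near that of the background. The values of the 3 DMSO and the 3 treated libraries did not overlap for 4 of the 7 members, against 70.0% of all genes tested. The median log2 fold change of the members was 0.00, beside 0.01 for all genes tested, whose 5th and 95th percentiles were -0.76 and 1.66. CDKN1A lay above that range and CDKN1C below it, as the plot of fold changes with their intervals shows.

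**Figure D1:**
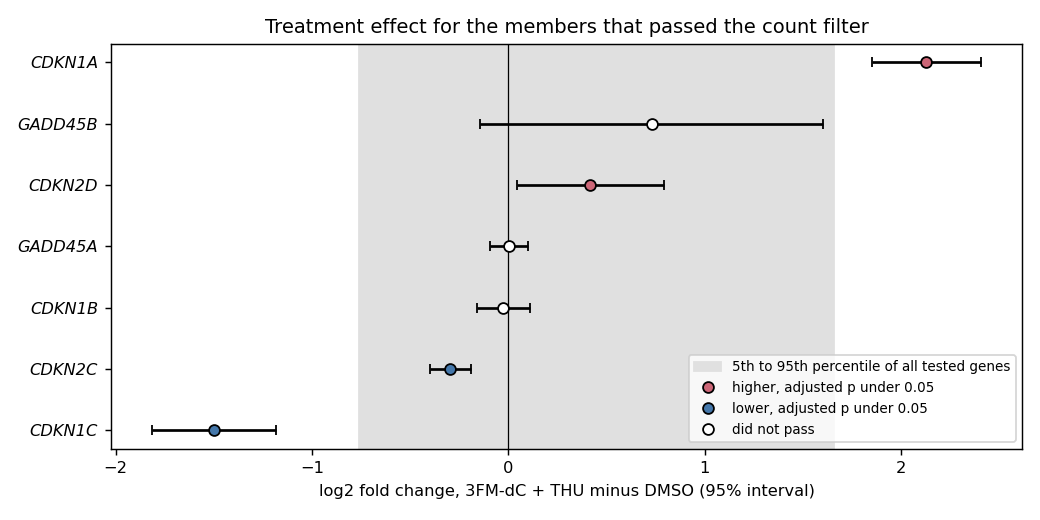
Log2 fold change (treated minus DMSO, 3 libraries per group) with its 95% interval for the 7 members that passed the filter on low counts; the grey band spans the 5th to 95th percentile of all 12339 tested genes. CDKN1A (2.13) and CDKN1C (-1.50) lie outside the band, and the intervals of GADD45A, CDKN1B and GADD45B include 0.

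Libraries held 18408826 to 22750278 reads in genes, and 3 reads in a library, used as the limit of detection, amounted to between 0.136 and 0.168 CPM (read counts relative to library size, scaled with TMM factors). Such limits cover counting error only. Erythroid markers were present, with 9 of 9 detected and a summed level of 7189 to 7377 CPM in the DMSO libraries and 3724 to 3884 CPM in the treated ones. Lymphoid, fibroblast, endothelial and epithelial marker lists of 4 or 5 genes each summed to at most 11.3, 10.5, 5.15 and 103 CPM in any library. MS4A1, LUM, CDH5, KRT5 and KRT14 had no read. Most of each sum came from a single gene. Mean DMSO and treated levels were 7.54 and 7.78 CPM for CD3D and 8.26 and 5.72 CPM for COL1A2. For PECAM1 they were 4.01 and 2.18 CPM, and for EPCAM 102 and 62.0 CPM. The part of the erythroid shift in the results below was not tested. In bulk RNA, fewer cells with a transcript and less of it per cell cannot be told apart. Scaling by total counts in place of TMM moved the median log2 fold change of all tested genes to 0.10 and the calls from 4167 higher and 4031 lower to 5048 higher and 3189 lower. The 4 changed members kept their calls under it.

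The 250 bases before the start sites of CDKN1A and CDKN1B are shown, since these members of one family differed in response: CDKN1A rose and CDKN1B did not pass the test. The sequences were taken from RefSeq (GRCh38.p14), on the plus strand in both cases: CDKN1A at chr6:36678464-36678713 and CDKN1B at chr12:12717118-12717367. They are printed 5′ to 3′, and capitals mark the GC box GGGCGG and the box CCAAT on either strand.
CDKN1A: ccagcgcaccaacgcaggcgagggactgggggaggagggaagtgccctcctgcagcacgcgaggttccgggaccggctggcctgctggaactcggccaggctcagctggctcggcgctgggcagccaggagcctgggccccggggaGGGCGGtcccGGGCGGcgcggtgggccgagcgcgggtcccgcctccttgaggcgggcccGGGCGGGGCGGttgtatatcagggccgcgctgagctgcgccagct
CDKN1B: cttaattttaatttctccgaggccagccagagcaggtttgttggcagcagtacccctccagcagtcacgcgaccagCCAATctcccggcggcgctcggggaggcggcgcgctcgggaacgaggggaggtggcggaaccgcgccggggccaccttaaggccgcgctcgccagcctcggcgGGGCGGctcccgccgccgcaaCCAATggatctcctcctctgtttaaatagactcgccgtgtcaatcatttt

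Both windows are rich in CG dinucleotides. Counted over 300 bases that reach 50 bases past the start, each held 29, against a median of 14 over 35116 RefSeq promoters of that length. At 75.8%, the share of promoters with fewer was the same for both genes. The CDKN1A window held 4 GC boxes, of which the last pair overlap, and no CCAAT. The CDKN1B window held 1 GC box and 3 CCAAT boxes, 1 of them not within the printed stretch. Neither window held the cAMP response element TGACGTCA, the C/EBP-ATF composite site TTGCATCA, the E-box CACGTG or the box TATAAA. Over all promoters, 45.0% held GGGCGG, 34.6% CCAAT, 11.5% TATAAA, 7.26% CACGTG, 1.85% TGACGTCA and 0.866% TTGCATCA. Such matches only describe the letters. DNA methylation was not measured in these libraries. The RefSeq table held promoters of 8 of the 10 members, without CDKN1C and GADD45A.

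CDKN1A, which encodes p21 and is the classic brake on CDK2 after stress, was a weakly expressed gene in untreated K562 cells. Its level was 4.55, 6.27 and 5.13 CPM in DMSO replicates 1, 2 and 3. Treated replicates 1, 2 and 3 had 19.9, 27.8 and 22.0 CPM. All 3 treated libraries stood above all 3 DMSO libraries, with the highest level in treated replicate 2. The mean rose from 5.32 ± 0.879 to 23.2 ± 4.10 CPM (SD, n = 3 per group). On the log2 scale, the change was 2.13 with a standard error (SE) of 0.14 and a 95% interval from 1.85 to 2.41 (adjusted p = 5.18e-14, edgeR). Among all genes tested, 96.7% had a smaller log2 fold change. The rise rests on 307 reads in the DMSO libraries and 1442 in the treated ones. The spread between libraries was 16.5% of the mean in the DMSO group and 17.7% in the treated group, wider than the 9.89% and 4.56% that counting alone gives. A long non-coding RNA on the opposite strand, DINOL, shares 146 bases or 4.79% of the CDKN1A exons in GENCODE 29 and is not a symbol of the count tables. Reads of it could have been counted for CDKN1A, since the strand setting of the counting is not given in the sources used here.

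CDKN1C, which encodes p57, moved the other way. It is an imprinted gene that is expressed mainly from the maternal copy. The DMSO replicates had 15.0, 14.3 and 14.1 CPM, and the treated replicates had 6.35, 3.52 and 5.53 CPM. The DMSO libraries were close together, and the highest treated library was below the lowest of them. The mean fell from 14.5 ± 0.446 to 5.13 ± 1.45 CPM, a log2 fold change of -1.50 (SE 0.15, 95% interval -1.81 to -1.18, adjusted p = 1.33e-09, edgeR). Only 0.924% of the genes tested had a lower fold change. Treated libraries varied by 28.3% of their mean, against 9.74% from counting. Treated replicate 2 had the lowest CDKN1C and the highest CDKN1A of the treated libraries.

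CDKN1B, which encodes p27 and is controlled largely through its degradation, was the most abundant CIP/KIP transcript. Its DMSO libraries had 44.4, 44.0 and 39.3 CPM and its treated libraries 40.8, 42.8 and 41.6 CPM. The treated values lay within the range of the DMSO values. The means were 42.6 ± 2.80 and 41.7 ± 1.01 CPM, and the log2 fold change of -0.03 (SE 0.07, adjusted p = 0.746, edgeR) had an interval from -0.16 to 0.11. The sign of this small difference was not stable: scaling by total counts gave 0.06, a stricter filter of 5 CPM gave 0.02, and leaving out DMSO replicate 1 gave 0.00082.

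**Figure D2:**
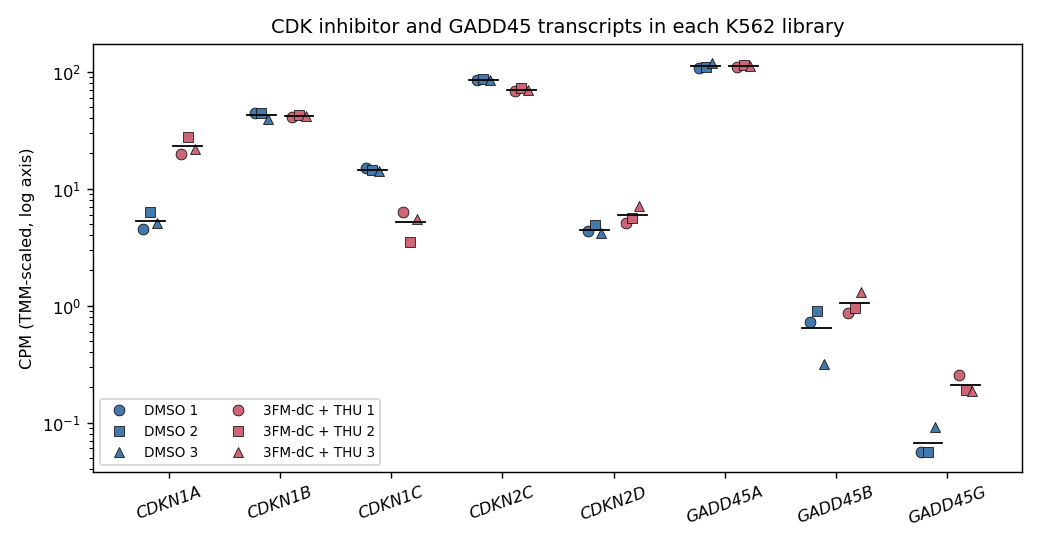
CPM (TMM-scaled, log axis) of the 8 members with reads in each library; blue marks DMSO and red 3FM-dC with THU, the marker shape gives the replicate, and the line is the mean of 3 libraries. CDKN1A is higher and CDKN1C lower in every treated library, CDKN1B and GADD45A overlap, and GADD45G stays under 0.3 CPM.

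Among the INK4 genes, CDKN2A and CDKN2B had 0 reads in each of the 6 libraries. A count of 0 allows a level of up to 0.136 to 0.168 CPM, depending on the library, so no direction or fold can be given for them. CDKN2B-AS1, the antisense RNA that shares 341 bases or 7.88% of the CDKN2A exons in GENCODE 29, had no read either. The gap extended well beyond the inhibitor genes. In the gene order of RefSeq, 28 counted symbols in a row had no read in any library, 21 on the MTAP side of CDKN2A and 6 on the CDKN2B side. Of these, 16 were interferon genes, which are silent in many cells. The other 12 were PTPLAD2, KLHL9, MIR31HG, MTAP, C9orf53, CDKN2A, CDKN2B-AS1, CDKN2B, DMRTA1, ELAVL2, IZUMO3 and TUSC1. MTAP, an enzyme of methionine salvage that most tissues express, was at 0 in all 6 libraries. The nearest symbols with reads were FOCAD, with 122 reads over the 6 libraries, and CAAP1, with 2686. FOCAD, at a mean of 1.06 CPM in DMSO and 0.971 CPM in treated libraries, did not pass the test (log2 fold change -0.13, adjusted p = 0.772, edgeR). From counts, a deleted gene and a silent one cannot be told apart.

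CDKN2C, which encodes p18, was the main INK4 transcript and fell by a small step. The DMSO libraries had 84.4, 87.1 and 85.3 CPM, and the treated ones had 68.1, 72.1 and 69.1 CPM. No treated library reached the lowest DMSO library. The mean fell from 85.6 ± 1.39 to 69.8 ± 2.10 CPM, with a log2 fold change of -0.29 (SE 0.05, 95% interval -0.40 to -0.19, adjusted p = 9.64e-06, edgeR). Tested against a fold change of 1.2 rather than 0, the fall did not pass (adjusted p = 0.221), so its size beyond 1.2-fold is not established.

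CDKN2D, which encodes p19, was higher after treatment by a margin that depends on the method. Its DMSO libraries had 4.33, 4.87 and 4.17 CPM and its treated libraries 5.12, 5.62 and 7.07 CPM. The groups did not overlap, and treated replicate 3 stood above the other treated libraries. The mean rose from 4.46 ± 0.368 to 5.94 ± 1.02 CPM, a log2 fold change of 0.42 (SE 0.18, 95% interval 0.04 to 0.79, adjusted p = 0.0451, edgeR). The call was lost with DESeq2 (adjusted p = 0.0681), with no filter on low counts (0.0573, edgeR) and with a replicate block (0.0561, edgeR). It was also lost in edgeR against a fold change of 1.2 (0.177). The same held without DMSO replicate 1 (0.0984), DMSO replicate 3 (0.126) or treated replicate 3 (0.266). The authors' deposited table also gave CDKN2D an adjusted p of 0.0844.

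Levels of different genes were compared per exonic length, as TPM (reads per exonic length, scaled to the same sum in every library). In DMSO libraries the order was GADD45A (216 ± 9.99 TPM), CDKN2C (103.5 ± 2.09), CDKN1B (60.8 ± 4.29), CDKN1C (23.4 ± 0.780), CDKN2D (11.9 ± 1.05), CDKN1A (7.0 ± 1.18), GADD45B (1.21 ± 0.563) and GADD45G (0.204 ± 0.0601). No neighbours in that order had overlapping ranges. In treated libraries CDKN1A, at 33.3 ± 6.01 TPM, had moved from the sixth place to the fourth, ahead of CDKN2D (17.3 ± 2.99) and CDKN1C (9.04 ± 2.53). The first 3 places were again held by GADD45A, CDKN2C and CDKN1B, and neighbours again did not overlap.

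The makeup of the CIP/KIP family shifted. CDKN1A made up 7.67 ± 1.19% of the family's TPM in DMSO libraries and 30.9 ± 4.01% in treated ones. CDKN1C went from 25.7 ± 1.02% to 8.53 ± 2.74%, and CDKN1B from 66.6 ± 1.10% to 60.5 ± 1.28%. Per kilobase of exon, the TMM-scaled sum of the 3 genes was 22.7 ± 1.18 CPM in DMSO libraries, 23.3, 23.5 and 21.4 in replicates 1, 2 and 3, and 24.5 ± 1.12 CPM in treated libraries, 23.6, 25.8 and 24.2. The sums did not overlap on this scale, although the highest DMSO and the lowest treated sum were close. The sum in TPM was 91.2 ± 5.21 (85.2 to 94.8) in DMSO and 107 ± 5.29 (102.5 to 112.9) in treated libraries, with a wider gap, so its size depends on the scaling. Within the INK4 family, CDKN2D went from 10.3 ± 0.631% to 15.8 ± 2.31% of the TPM and CDKN2C made up the rest. The INK4 sum per kilobase was 28.8 ± 0.644 CPM in DMSO and 25.0 ± 0.907 CPM in treated libraries. Shares and sums were not tested, since they follow from the values of the members.

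**Figure D3:**
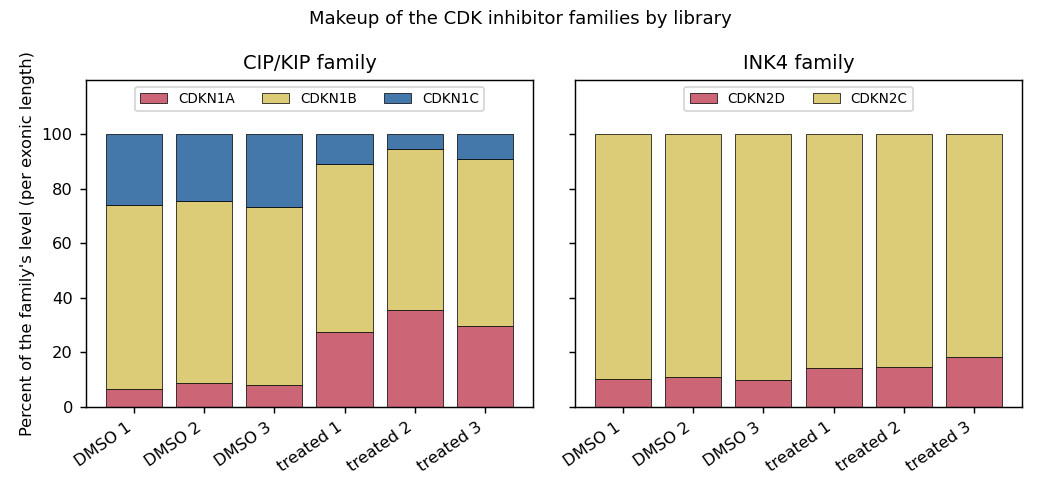
Share of each gene in the length-scaled level of its family (percent of the family's TPM), as stacked bars for the 6 libraries; CDKN2A and CDKN2B are at 0 and not drawn. CDKN1A makes up 6.40 to 8.76% of the CIP/KIP level in DMSO and 27.6 to 35.4% in treated libraries, and CDKN1C makes up 24.6 to 26.7% and 5.52 to 10.9%.

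Of the GADD45 genes, GADD45A was by far the most abundant and did not change detectably with TMM scaling. Its DMSO libraries had 106.5, 110.6 and 117.6 CPM and its treated libraries 108.9, 114.8 and 112.2 CPM. The treated values lay inside the DMSO range. Both means rounded to 112 CPM, with SDs of 5.60 and 2.97, and the log2 fold change was 0.00 (SE 0.05, adjusted p = 0.945, edgeR) with an interval from -0.09 to 0.10. In TPM, the treated libraries (228.7, 243.2 and 237.3) all lay above the DMSO libraries (206.8, 215.6 and 226.7). Total-count scaling gave a log2 fold change of 0.09 (adjusted p = 0.0777, edgeR), which did not pass either. The size of the difference thus depends on the scaling. GADD45A made up 99.3% of the GADD45 TPM in DMSO libraries and 98.8% in treated ones.

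GADD45B, an early stress and NF-κB target in many cells, was near the lower end of what could be tested. The DMSO libraries had 13, 16 and 7 reads (0.721, 0.896 and 0.318 CPM) and the treated libraries 17, 20 and 28 reads (0.870, 0.952 and 1.31 CPM). Treated replicate 1 lay below DMSO replicate 2, so the groups overlapped. The means were 0.645 ± 0.297 and 1.04 ± 0.235 CPM, and the log2 fold change of 0.73 (SE 0.43, adjusted p = 0.134, edgeR) had an interval from -0.14 to 1.60. Leaving out DMSO replicate 3, the lowest library, gave 0.37 (adjusted p = 0.497), and leaving out DMSO replicate 2, the highest of its group, gave 1.04 (adjusted p = 0.0806).

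GADD45G had 1, 1 and 2 reads in the DMSO libraries and 5, 4 and 4 in the treated ones, too few to pass the filter. Its DMSO level was below the limit of 3 reads in each library and its treated level just above it, at 0.256, 0.190 and 0.187 CPM. Pooled over libraries, 4 reads stood against 13, a ratio of 3.04 after scaling, with an exact 95% interval for counting error from 0.940 to 12.8. Fitted without a filter, it did not pass the test either (adjusted p = 0.220, edgeR). At this depth a change of GADD45G was not established.

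The G1/S machinery in which the CDK inhibitors act was described with a list of 24 genes, comprising cyclins, kinases, pocket proteins and E2F factors. Of 23 tested, 5 were higher, 13 lower and 5 did not pass, with a median log2 fold change of -0.21. The share changed was 78.3%, beside 66.4% of all genes tested. CDK4, a kinase bound by INK4 proteins, fell from 266 to 217 CPM (log2 fold change -0.29, adjusted p = 1.19e-07, edgeR). Tested against a minimum fold change of 1.2, it did not pass (adjusted p = 0.189). CDK6, the other kinase bound by INK4 proteins, had 343 and 326 CPM and did not pass (-0.08, adjusted p = 0.148, edgeR). It passed without DMSO replicate 3 (adjusted p = 0.0393), without treated replicate 3 (0.0435) and with no filter (0.0339), and its sign turned under total-count scaling (0.02). CCNA2, the S-phase cyclin that CIP/KIP proteins inhibit with CDK2, fell from 335 to 242 CPM, and TFDP1, the dimer partner of E2F factors, fell from 229 to 163 CPM. CCNE2, a cyclin that activates CDK2, rose from 23.7 to 32.1 CPM, and the repressor E2F7 rose from 41.7 to 53.8 CPM. The other E-type cyclin of the list, CCNE1, fell from 49.6 to 33.6 CPM (log2 fold change -0.57, adjusted p = 1.43e-07, edgeR).

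Of 13 tested genes that act in the breakdown of CDK inhibitors, 1 was higher, 9 were lower and 3 did not pass. Their median log2 fold change was -0.29. The share changed was 76.9%, against 66.4% of all genes tested, of which 32.7% were lower. Against a fold change of 1.2, 6 of the list were lower. SKP2, the F-box protein that marks p27 for the proteasome, fell from 129 to 82.8 CPM (log2 fold change -0.64), while CDKN1B itself did not pass the test. CUL4A, the scaffold of the ligase that degrades p21 on chromatin, fell from 174 to 118 CPM. UBAC1, a subunit of the KPC ligase of p27, fell from 421 to 309 CPM. DTL, the substrate receptor of the CUL4 ligase, rose from 137 to 154 CPM, a log2 fold change of 0.17 that was not past 1.2-fold. Protein levels were not measured.

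The list of 33 transcription factors and chromatin proteins known to act on these genes had 18 higher, 7 lower and 8 that did not pass. Its median was 0.28, and 75.8% changed, beside 66.4% of all genes tested. ATF4, the main factor of the integrated stress response, rose from 302 to 700 CPM, and EGR1, an immediate early factor, rose from 117 to 343 CPM. MYC, which represses CDKN1A through ZBTB17, fell from 435 to 309 CPM (log2 fold change -0.49). ID1, a helix-loop-helix inhibitor, fell from 75.8 to 38.6 CPM.

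Partners of the GADD45 proteins and the p38 and JNK kinases had 14 tested genes, of which 1 was higher, 9 lower and 4 did not pass. Their median was -0.17, and 71.4% changed, beside 66.4% of all genes tested. MAP3K4, the kinase that GADD45 proteins activate, fell from 145 to 97.6 CPM (log2 fold change -0.57). CCNB1, the cyclin of the CDK1 complex that GADD45 proteins can disrupt, fell from 313 to 218 CPM. MAPK11, a p38 kinase, was the gene that rose, from 15.7 to 18.8 CPM (log2 fold change 0.27, adjusted p = 0.0249, edgeR). It no longer passed without DMSO replicate 2 (adjusted p = 0.0840), DMSO replicate 3 (0.117) or treated replicate 1 (0.150). MAP2K6, a kinase of p38, had no read in DMSO and 20 reads in treated libraries and did not pass the filter of the main fit. It entered the fit with no filter, in which 2 genes of the list were higher.

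**Figure D4:**
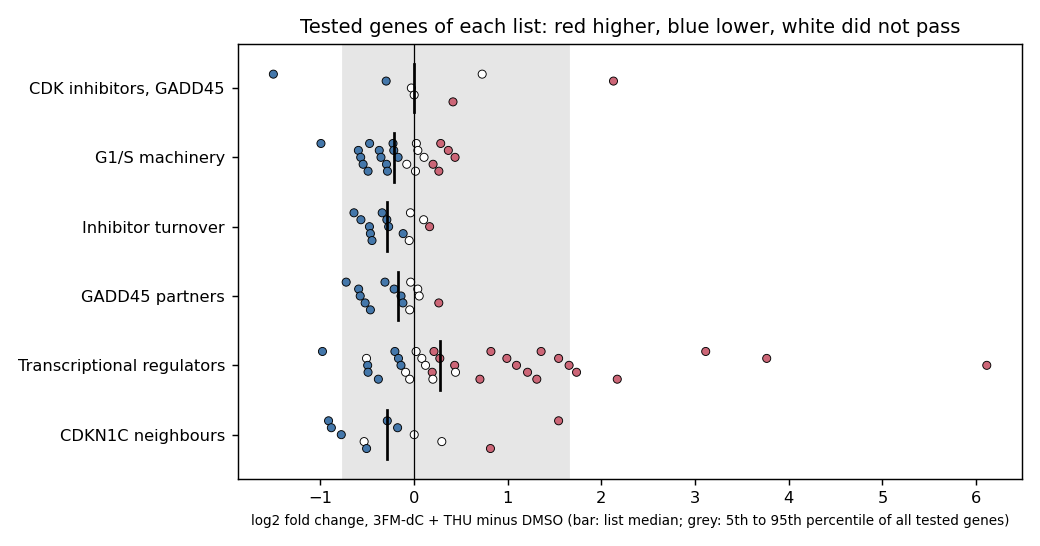
Log2 fold change (treated minus DMSO) of the tested genes in 6 lists, 1 point per gene, red where higher and blue where lower at an adjusted p under 0.05, white where the test was not passed; black bars are list medians and grey spans the 5th to 95th percentile of all tested genes. The turnover and CDKN1C neighbour lists have medians of -0.29 and -0.28 and the transcriptional regulators of 0.28.

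CDKN1C lies in an imprinted gene cluster, and 16 of its neighbours were listed. Of the 11 tested, 2 were higher, 6 lower and 3 did not pass, with a median of -0.28. The share changed was 72.7%, beside 66.4% of all genes tested. H19, a maternally expressed non-coding RNA, fell from 25.2 to 13.7 CPM, and PHLDA2, a maternally expressed growth inhibitor, fell from 19.2 to 11.2 CPM. SLC22A18, an imprinted transporter gene of the same cluster, rose from 1.11 to 3.31 CPM, and CARS, a cysteinyl-tRNA synthetase, rose from 110 to 195 CPM. IGF2 and KCNQ1DN had no read. Genes around CDKN1C went in both directions, but more were lower (6) than higher (2), whereas all genes tested had 33.8% higher and 32.7% lower. With total-count scaling, 3 neighbours were higher and 3 lower. The reason for this split was not tested. Allele-specific expression was not measured.

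The genes whose profile over the 6 libraries was nearest to that of CDKN1A were sought among 10811 genes that averaged 2 CPM or more, by the root mean square distance of log2 CPM relative to the DMSO mean. Among the 3 nearest were SYNJ2BP (distance 0.110) and ARRDC4 (0.115). SYNJ2BP went from 2.34 to 9.83 CPM. For CDKN1C, the nearest were PLD6 (0.0740), CASKIN1 (0.106) and NEFH (0.119), and PLD6 went from 32.7 to 12.3 CPM. These distances describe 6 libraries and carry no test.

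The authors' deposited table, which compares a group B with a group A that its headers do not name, gives ratios of 4.33 for CDKN1A, 0.351 for CDKN1C and 0.807 for CDKN2C. It lists CDKN1B at 0.971, CDKN2D at 1.32, GADD45A at 0.994, GADD45B at 1.60 and GADD45G at 3.10.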

How the data were processed

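Each of the 6 libraries came with a table of unnormalized counts of reads by gene symbol, deposited by the authors. The submitters' processing notes name STAR, Cufflinks, DESeq2 and hg19, with no version and no statement of what each was used for. Which program counted the reads, with which strand setting and annotation, is not given in the sources used here. Totals of unassigned reads, which name no gene, were left out: reads in no feature made up 10.9% to 13.1% of each library and ambiguous reads 2.27% to 2.38%. Libraries were made from 1000 ng of RNA with a directional mRNA kit, per the labels' protocols. The authors' own comparison holds a mean signal over all samples (normalized counts), a fold ratio and p-values, per the file headers.

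Genes were tested with edgeR 4.0.16 in R 4.3.3 (quasi-likelihood test, TMM factors, treatment as the only term). Of 23710 symbols, 12339 passed filterByExpr (minimum count 10), which a gene could do through either group. The two-sided p-values were adjusted over all genes tested (Benjamini-Hochberg, threshold 0.05). The SE of a log2 fold change was its size divided by the square root of the F statistic, and 95% intervals used the degrees of freedom of the fit. TPM and values per kilobase used exon lengths of GENCODE 29 matched by symbol (89.7% of symbols, 96.2% of counts), on GRCh38 rather than hg19. Promoters and gene order came from RefSeq. Pairs of libraries of a group differed by a chi-square of 2.38 to 6.22 per degree of freedom, beyond counting noise, and were kept apart. The tests were checked on simulated counts, with far fewer changed genes than here and the same variability beyond counting for every gene. That check therefore does not cover data in which most genes change. Tables and figures were made with Python 3.11.15, pandas 2.3.3 and matplotlib 3.10.9.

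The members and lists were chosen with earlier results of these data known. Named genes were the members, in each list the 2 rises and the 2 falls with the smallest p and undetected genes, MTAP, MYC, SKP2, CDK4, CDK6, MAP3K4, and for CDKN1A and CDKN1C the 3 genes with the nearest profile. Some genes under this rule and 1 list are not reported here. CCNE1, MAP2K6, CAAP1, CD3D, COL1A2, PECAM1 and EPCAM were named after their values were seen. Alternatives were relative log expression (RLE) factors, total counts, DESeq2 1.42.0, no filter, a floor of 5 CPM on the mean, a replicate block, a minimum fold change of 1.2, each library left out, and the longest transcript as length.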

Additional observations from a re-analysis of the deposited data

How the results depend on the processing

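The directions and calls of CDKN1A and CDKN1C held under every alternative, with log2 fold changes from 1.98 to 2.25 and from -1.68 to -1.29. CDKN2C kept its call except against a minimum fold change of 1.2, and CDKN2D lost its call in 7 of 13 alternatives, with adjusted p-values between 0.0159 and 0.266 (edgeR and DESeq2). Total-count scaling raised the higher G1/S genes to 8 and the higher turnover genes to 2, lowered the lower CDKN1C neighbours to 3, and turned CDKN1B to a log2 fold change of 0.0647 and CDK6 to 0.0151. With DESeq2, or with no filter, 1 member was higher. With no filter, 2 GADD45 partners were higher and GADD45A stood at -0.0114, against 0.0948 with total-count scaling. The 5 CPM filter gave 2 higher turnover genes and 0.0165 for CDKN1B. Against a fold change of 1.2, 2641 genes were higher and 2124 lower, with 1 member higher and 1 lower, 2 G1/S genes higher and 7 lower, 0 turnover genes higher, 4 regulators lower, 0 GADD45 partners higher and 5 lower, and 2 CDKN1C neighbours lower; here the stricter hypothesis itself lowers the counts. For the other changes the cause was not tested. Leaving out each library gave 1 to 2 higher members, 0 to 1 higher GADD45 partners, log2 fold changes of CDKN1B from -0.0825 to 0.00082 and of GADD45A from -0.0323 to 0.0446. Libraries of the same replicate number did not deviate together (r of -0.0086, 0.0012 and -0.055 over 12339 genes, for numbers 1, 2 and 3). No pairing by number was thus seen, but such values cannot show whether libraries of a number were handled together. With a replicate block 1 member was higher, CDKN2D having a log2 fold change of 0.41 and an adjusted p of 0.0561 (edgeR). With the longest transcript as length, CDKN1A made up 9.08% and 35.7% of the CIP/KIP level in DMSO and treated libraries, and the order of the members was the same. Depth limits GADD45B and GADD45G most, and gives CDKN2A and CDKN2B an upper limit only.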
